A study of Mus musculus with 6 samples.

Results

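The phospholipase A2 genes described here are Pla2g2a, Pla2g2d, Pla2g2e, Pla2g2f and Pla2g3, which encode secreted enzymes, and Pla2g4a, Pla2g4b, Pla2g4d, Pla2g4e and Pla2g4f, which encode cytosolic enzymes. They were taken from the count tables by gene symbol and make up 10 of the 24063 symbols there, and the family was picked with earlier results of these data known. The RNA came from penile tumors (3 SA mice) and normal penile epithelium (3 wild type, WT, C57BL/6 mice), and all mice were male and 5 months old. SA mice carry PB-Cre and homozygous floxed alleles of Smad4 and Apc, and their tumors arose without a carcinogen. PB-Cre4 drives Cre from an androgen-responsive promoter, which is also active in the prostate. Neither Cre nor a floxed allele is listed for the WT mice, and the strain background of the SA mice is not given in the sources used here. Genotype and strain therefore cannot be told apart in this comparison.

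Phospholipases A2 cut a fatty acid from the middle position of a membrane phospholipid and leave a lysophospholipid. The secreted enzymes are small, calcium-dependent proteins that act outside the cell. The cytosolic group IV enzymes are larger proteins, and Pla2g4a releases the arachidonic acid from which prostaglandins and leukotrienes are made. In skin-like epithelium, several members act on the lipids of differentiating keratinocytes.

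A library held between 23828283 and 110509147 counts over the gene rows, with SA tumor replicate 3 the deepest, at 4.42 times the median depth of the rest. Levels are given as CPM, read counts scaled to library size and normalized by TMM, and 16336 genes passed the filter on low counts. In the text a gene rose or fell when its adjusted p-value was under 0.01 (edgeR quasi-likelihood F-test, Benjamini-Hochberg over all genes tested). It passed both thresholds when the change was also at least 4-fold, a log2 fold change of 2. The p-values measure the spread between these samples, and 3 against 3 samples allow an exact permutation p no smaller than 0.1 for a single gene. Smad4 was at 39.6 ± 5.61 CPM in the SA tumors and 67.8 ± 5.92 in the WT penises (mean ± SD, n = 3), and Apc at 215 ± 33.4 and 79.6 ± 15.1. Counts over whole transcripts cannot show the loss of an exon. The basal keratinocyte markers summed to 9388 to 11658 CPM in the tumors and 20516 to 22614 in the WT penises, so both tissues held keratinocyte RNA.

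The phospholipase A2 genes changed in both directions, and 4 of the 10 passed both thresholds, against a background of 13.0% of all genes tested. All 10 members passed the filter on low counts, Pla2g2a only through the SA tumors and Pla2g2d only with the WT penises included. At both thresholds 2 members were higher in SA tumors, Pla2g2a and Pla2g4e, against a background of 9.41%. At the same thresholds 2 members were lower, Pla2g2d and Pla2g3, against a background of 3.59%. By the adjusted p-value alone 9 members changed (background 37.6%), of which 6 rose (background 20.1%) and 3 fell (background 17.5%). The groups did not overlap for 9 members, where the background was 63.4% of genes. The median log2 fold change was 0.94 over the members and 0.03 over all genes tested, and the median of its size was 1.64 and 0.49.

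**Figure D1:**
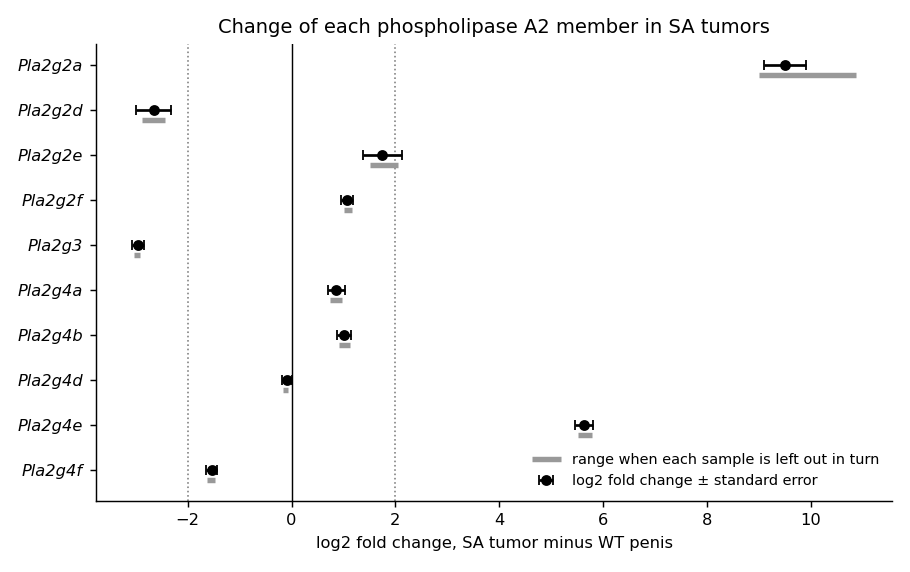
Log2 fold change of each of the 10 members, SA tumor minus WT penis, as a point with its standard error (edgeR), over a grey bar that spans the 6 fits with 1 sample left out. Dotted lines mark a log2 fold change of 2 in each direction, and Pla2g2a at 9.51 and Pla2g4e at 5.63 lie far to the right of them, while Pla2g2d and Pla2g3 lie to the left.

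Promoter sequences are shown for the 3 adjacent cytosolic members that responded differently, and for Pla2g2e, the one member with matches to the AP-1 motif. RefSeq promoters on build GRCm38.p6 were found for 7 of the 10 members, with 250 bases before and 50 after an annotated start site. Of the members, Pla2g2a, Pla2g3 and Pla2g4b had none in the table used here. Each sequence runs 5′ to 3′ on the strand of its gene, and capitals mark motif matches.

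Pla2g4e, chr2:120245286-120245585, minus strand: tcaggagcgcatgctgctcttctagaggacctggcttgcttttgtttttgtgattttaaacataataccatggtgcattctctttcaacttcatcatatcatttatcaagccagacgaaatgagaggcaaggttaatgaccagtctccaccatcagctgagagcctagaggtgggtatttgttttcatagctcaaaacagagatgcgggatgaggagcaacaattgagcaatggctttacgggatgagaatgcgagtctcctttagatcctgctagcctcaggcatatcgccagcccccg

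Pla2g4d, chr2:120289020-120289319, minus strand: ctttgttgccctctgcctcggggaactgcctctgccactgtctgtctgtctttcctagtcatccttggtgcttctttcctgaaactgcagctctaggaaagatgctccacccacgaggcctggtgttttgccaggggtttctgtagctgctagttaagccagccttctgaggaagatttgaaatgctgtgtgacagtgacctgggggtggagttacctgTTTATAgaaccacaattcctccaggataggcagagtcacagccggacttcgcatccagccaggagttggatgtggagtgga

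Pla2g4f, chr2:120314116-120314415, minus strand: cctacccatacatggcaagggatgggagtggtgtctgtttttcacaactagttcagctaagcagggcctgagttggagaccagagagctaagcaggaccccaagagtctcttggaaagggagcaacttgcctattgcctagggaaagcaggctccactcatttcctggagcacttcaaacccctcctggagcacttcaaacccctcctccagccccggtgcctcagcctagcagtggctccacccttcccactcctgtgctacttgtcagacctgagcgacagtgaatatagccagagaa

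Pla2g2e, chr4:138877692-138877991, plus strand: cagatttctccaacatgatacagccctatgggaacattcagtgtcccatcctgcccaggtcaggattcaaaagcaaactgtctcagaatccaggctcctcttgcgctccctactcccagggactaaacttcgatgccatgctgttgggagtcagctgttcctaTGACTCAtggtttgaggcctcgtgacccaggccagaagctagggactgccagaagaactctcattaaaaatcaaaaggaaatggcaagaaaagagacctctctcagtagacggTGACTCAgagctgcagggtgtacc

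Motifs searched on both strands were TCF/LEF (CTTTGAT), AP-1 (TGANTCA) and a TATA box (TATAAA), which do not overlap in these windows. The Pla2g2e window held TGACTCA at 87 bases before the start site and again at 26 after it, and 7.81% of 32851 mouse promoters of this length held an AP-1 match. The Pla2g4d window held a TATA match on the opposite strand at 31 bases before its start. A TATA match anywhere in the window, on either strand, was found in 13.6% of promoters. No TCF/LEF match was found in the 8 promoters of the members, against 3.73% of all promoters. A second Pla2g4a promoter had a TATA match on the opposite strand at 200 bases before its start. The windows of Pla2g4e, Pla2g4f, Pla2g2d and Pla2g2f had no match.

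Pla2g2a encodes the group IIA secreted enzyme, which kills Gram-positive bacteria and, in the intestine of Apc-mutant mice, is known as a modifier of polyp number. C57BL/6 mice carry a frameshift in Pla2g2a and lack the active enzyme. RefSeq lists it as a transcribed pseudogene at chr4:138831857-138835189, plus strand. Its level was 46.6, 46.1 and 32.3 CPM in the SA tumors and 0.136, 0.0334 and 0 CPM in the WT penises, from 1253, 1393 and 3977 counts against 3, 1 and 0. Pla2g2a RNA was thus well counted in every tumor and at the limit of detection in every WT library, where 3 counts corresponded to between 0.100 and 0.137 CPM. The pooled counts, 6623 against 4, gave a ratio of 680 (95% exact interval for counting error only, 265 to 2497). In the fitted model the log2 fold change, with its standard error, was 9.51 ± 0.41 (adjusted p = 1.98e-06, edgeR), rank 37 from the highest of all genes tested, and its size depends on the prior count. Without WT penis replicate 1 the fitted value was 10.88.

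Since the WT mice are C57BL/6, genes known to differ between C57BL/6 and other strains are given beside Pla2g2a. Nnt, a mitochondrial enzyme gene that is deleted in part in C57BL/6J, was at 24.1 ± 4.11 CPM in the tumors and 10.9 ± 1.48 in the WT group. The corresponding levels were 41.0 ± 6.82 and 20.1 ± 3.37 CPM for Wdfy1, and 87.9 ± 10.2 and 48.2 ± 8.0 CPM for Glo1. All 3 of these rose (background 20.1%), and 0 passed both thresholds (background 13.0%). Another such gene, H2-Ea-ps, was too low to be tested, at 0.0151 CPM in the tumors and 0 in the WT penises. The part of strain in the Pla2g2a difference cannot be told apart from that of the tumor genotype.

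Pla2g2d, expressed by dendritic cells and macrophages in lymphoid tissue, and Pla2g3, the group III enzyme related to bee venom phospholipase, were the secreted members that fell past both thresholds. Pla2g3 (chr11:3488158-3499346) was at 6.32, 5.69 and 6.28 CPM in the SA tumors and at 46.7, 51.2 and 44.4 CPM in the WT penises. Every WT library lay far above every tumor, with a WT level 7.78 times the tumor level. Its log2 fold change was -2.96 ± 0.12 (adjusted p = 1.69e-06, edgeR) and stayed between -3.03 and -2.91 with each sample left out. Of the 76-base windows of Pla2g3 transcripts, 6.95% lie in Inpp5j on the opposite strand.

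Pla2g2d (chr4:138775735-138782052) was a low gene in both groups. It had 0.223, 0.463 and 0.487 CPM in the SA tumors and 2.31, 2.64 and 2.87 CPM in the WT penises, from 6, 14 and 60 counts against 51, 79 and 63. The groups did not overlap, and the WT level was 6.66 times the tumor level. The log2 fold change was -2.66 ± 0.34 (adjusted p = 0.000277, edgeR), but a test against the 4-fold threshold itself gave an adjusted p of 0.115. In bulk RNA fewer cells of a type and less RNA per cell cannot be told apart. The 7 macrophage markers tested summed to 134 to 319 CPM in the tumors and 218 to 310 in the WT penises, and 1 of them fell (background 17.5%). The 8 dendritic and Langerhans cell markers summed to 19.0 to 38.3 CPM in the tumors and 9.66 to 18.4 in the WT penises. Itgax made up most of the tumor sum, at 18.5 ± 7.39 CPM against 4.36 ± 1.42 in the WT penises. None of these markers was at 0 in all libraries of a group. Itgax and Ccr7 passed both thresholds upward, while Cd207, the Langerhans cell lectin, was at 0.377 ± 0.0489 CPM against 2.28 ± 0.773 and passed them downward. The part of these cells in the Pla2g2d difference was not tested.

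Pla2g2f and Pla2g2e, the epithelial secreted enzymes of skin, rose by less than 4-fold. Pla2g2f, which is made by suprabasal keratinocytes (chr4:138750533-138757598), was at 67.3, 67.2 and 55.1 CPM in the SA tumors and 28.8, 30.4 and 31.1 CPM in the WT penises. The lowest tumor was well above the highest WT library, and the log2 fold change was 1.07 ± 0.11 (adjusted p = 0.000101, edgeR). Over the same libraries the 12 suprabasal and cornified keratinocyte markers summed to 14151 to 21758 CPM in the tumors and 54651 to 61507 in the WT penises. Krt1 (6581 ± 1783 CPM in the tumors, 20315 ± 1111 in the WT penises) and Krt10 (6373 ± 1747 and 24984 ± 1923) dominated this sum. Of those 12 markers 8 fell (background 17.5%) and 2, Flg2 and Dsc1, rose (background 20.1%). The part of these cells in the Pla2g2f difference was not tested.

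Pla2g2e (chr4:138877911-138882817), known from hair follicles, was at 5.98, 5.16 and 2.67 CPM in the SA tumors and 1.76, 0.968 and 1.37 CPM in the WT penises. The third tumor was the nearest to the WT penises, and the groups did not overlap. The log2 fold change was 1.75 ± 0.38 (adjusted p = 0.00462, edgeR). This call was the least stable among the members. The adjusted p-value exceeded 0.01 without SA tumor replicate 1 (0.0108) or 2 (0.0186) and without WT penis replicate 1 (0.0103), 2 (0.0219) or 3 (0.0179). In limma-voom it was 0.0335. Without SA tumor replicate 3, the deepest library, the log2 fold change was 2.04 and passed both thresholds (adjusted p = 0.000617, edgeR).

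**Figure D2:**
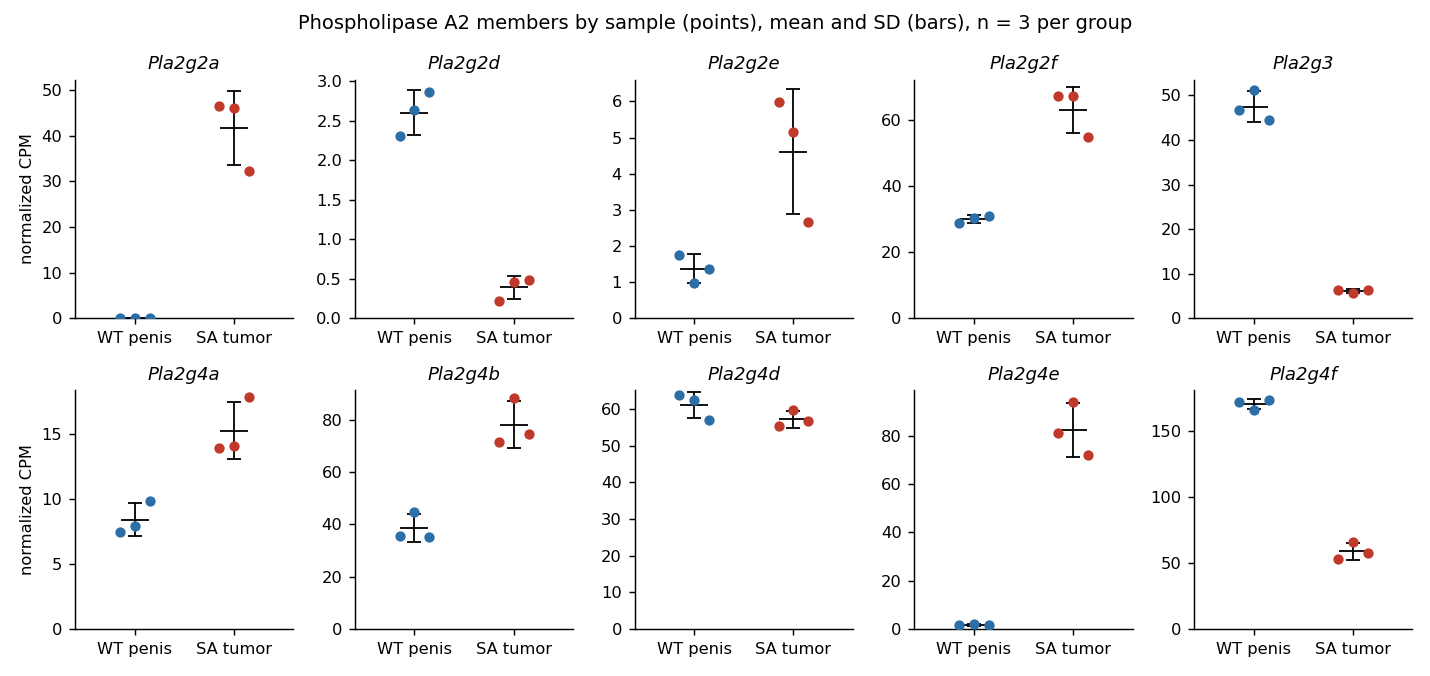
Normalized CPM of the 10 members in each sample (points), with the mean and SD as bars, for 3 WT penises (blue) and 3 SA tumors (red), each panel on its own linear axis from 0. Pla2g2a and Pla2g4e are near 0 in the WT penises, Pla2g2d, Pla2g3 and Pla2g4f are lower in the tumors, and Pla2g4d is the one panel in which the groups overlap.

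Among the cytosolic members, Pla2g4e passed both thresholds upward and 0 did so downward. Pla2g4e is a calcium-dependent N-acyltransferase that makes the precursors of N-acylethanolamines. It was at 81.3, 94.2 and 72.1 CPM in the SA tumors and at 1.49, 1.97 and 1.46 CPM in the WT penises. The tumor level was 50.3 times the WT level, with a wide gap between the groups. The log2 fold change was 5.63 ± 0.18 (adjusted p = 7.11e-07, edgeR) and stayed between 5.53 and 5.79 with each sample left out. It ranked 338 from the highest of all genes tested.

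Pla2g4f, the group IVF enzyme, fell. It was at 52.9, 65.9 and 57.3 CPM in the SA tumors and 172, 166 and 173 CPM in the WT penises. The WT level was 2.91 times that of the tumors, and the log2 fold change was -1.54 ± 0.11 (adjusted p = 1.17e-05, edgeR), which is short of the 4-fold threshold. The suprabasal marker sum given for Pla2g2f was also lower in every tumor, and its part in the Pla2g4f difference was not tested.

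Pla2g4d, an enzyme known from keratinocytes of psoriatic skin, was at 55.3, 59.8 and 56.8 CPM in the SA tumors and 63.8, 62.4 and 57.0 CPM in the WT penises. The groups overlapped, since the second tumor was above the third WT penis. The log2 fold change was -0.09 ± 0.09 (adjusted p = 0.428, edgeR). Scaled by library totals alone it was 0.19 (adjusted p = 0.0854), and the deposited TPM values, which have no TMM scaling either, were 30.9 ± 0.745 in the tumors and 25.5 ± 0.894 in the WT penises. No direction is therefore given for this gene.

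Pla2g4a, the arachidonate-releasing enzyme on chromosome 1 (chr1:149829618-149961290), was at 13.9, 14.1 and 17.8 CPM in the SA tumors and 7.46, 7.94 and 9.84 CPM in the WT penises. The groups did not overlap, and Pla2g4a rose by a log2 fold change of 0.86 ± 0.17 (adjusted p = 0.00301, edgeR). The adjusted p-value exceeded 0.01 without WT penis replicate 1 (0.0143) or 2 (0.0181). The 6 neutrophil markers tested all passed both thresholds upward (background 9.41%). Of these, Mmp8 and Retnlg passed the filter on low counts only through the SA tumors. The 6 markers summed to 1427 to 2490 CPM in the tumors and 56.6 to 120 in the WT penises. The most abundant markers dominated this sum, S100a9 being at 1049 ± 289 CPM in the tumors, Csf3r at 37.0 ± 23.4 and Retnlg at 2.93 ± 1.92. No neutrophil marker was at 0 in all libraries of a group. Pla2g4a is widely expressed, leukocytes included, and the part of these cells in its level was not tested.

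Pla2g4b, the group IVB enzyme, was at 71.2, 88.4 and 74.5 CPM in the SA tumors and 35.6, 44.7 and 35.2 CPM in the WT penises. The groups did not overlap, and the log2 fold change was 1.02 ± 0.13 (adjusted p = 0.000332, edgeR). This value is uncertain, because 63.0% of the 76-base windows of Pla2g4b transcripts also lie in the readthrough gene that joins it to Jmjd7, and 11.9% lie in Sptbn5 on the opposite strand. The readthrough row rose from 45.8 ± 5.39 to 86.4 ± 9.55 CPM, a log2 fold change of 0.91 (adjusted p = 0.000404, edgeR). Jmjd7 itself was at 9.38 ± 0.392 CPM in the tumors and 7.87 ± 0.116 in the WT penises (adjusted p = 0.161).

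The members that lie side by side in the genome did not move together. On chromosome 2, Pla2g4b (120033433-120043033), Pla2g4e (120166412-120245630), Pla2g4d (120265866-120289069) and Pla2g4f (120299952-120314165) span 280.7 kb. Within 200 kb of this span 10 other genes were tested, and 0 passed both thresholds (background 13.0% of all genes tested). Ehd4, which lies between Pla2g4b and Pla2g4e, had a log2 fold change of 0.02 (adjusted p = 0.918), and Vps39, next to Pla2g4f, of -0.22 (adjusted p = 0.0724). Mga (log2 fold change 0.74, adjusted p = 0.00351, edgeR) and Zfp106 (0.69, adjusted p = 0.000368), farther out, rose by less than 4-fold. No tested gene around Pla2g4e shared its rise past both thresholds, but a count of 0 of 10 is near the background.

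On chromosome 4, Pla2g2f, Pla2g2d, Pla2g2a and Pla2g2e span 132.3 kb. Of 6 other genes tested within 200 kb, 2 passed both thresholds upward (background 9.41%) and 0 downward (background 3.59%). Both lie beside Pla2g2f, at the end away from Pla2g2a, and passed the filter on low counts only through the SA tumors. Ubxn10 was at 5.29 ± 0.277 CPM in the tumors and 0.0152 in the WT penises (log2 fold change 8.32). Pla2g2c, another secreted member of the wider family, was at 0.595 ± 0.0999 and 0.0151 CPM (log2 fold change 5.15). Pla2g5, whose annotated span includes that of Pla2g2a on the other strand, was at 1.80 ± 0.556 CPM in the tumors and 0.905 ± 0.223 in the WT penises (adjusted p = 0.0331, edgeR). No 76-base window of a Pla2g2a transcript lies in an exon of Pla2g5.

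**Figure D3:**
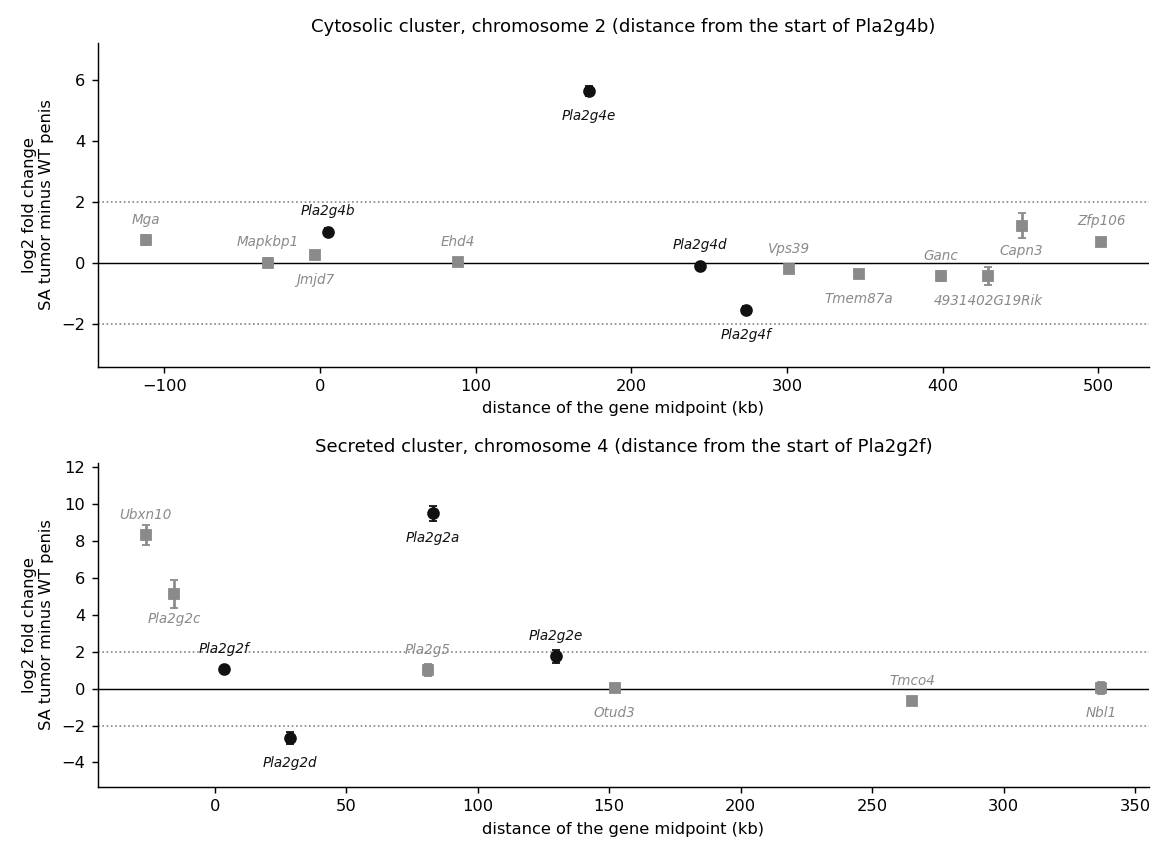
Log2 fold change (SA tumor minus WT penis, with standard error) of the members (black circles) and of other tested genes within 200 kb (grey squares), against the distance of the gene midpoint in kb from the first member of each cluster. On chromosome 2 Pla2g4e is alone above the dotted line at a log2 fold change of 2, and on chromosome 4 Pla2g2a, Ubxn10 and Pla2g2c lie above it.

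Levels per transcript length were compared by the deposited TPM values, which carry no TMM scaling. The 10 members summed to 295 ± 24.5 TPM in the SA tumors and 164 ± 9.89 in the WT penises. Without Pla2g2a the sums were 201, 213 and 193 TPM against 153, 169 and 171. In the WT penises Pla2g4f held 45.6% ± 1.6 of the family total by TPM, Pla2g4d 15.5% ± 0.796, Pla2g3 15.1% ± 0.916, Pla2g2f 10.3% ± 0.459 and Pla2g4b 8.32% ± 1.06. The spreads of Pla2g4d and Pla2g3 overlapped.

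In the SA tumors Pla2g2a held the largest share per transcript length, 31.3% ± 3.27 of the family total by TPM, against 0.0592% ± 0.0746 in the WT penises. Pla2g2f followed at 15.6% ± 0.518. Pla2g4b at 12.2%, Pla2g4f at 11.3%, Pla2g4e at 11.1% and Pla2g4d at 10.5% came next, and neighbours in this order differed by less than the larger of their SDs (0.465 to 1.33). Pla2g4a held 3.28% in the tumors and 2.47% in the WT penises. The share of Pla2g4e was 0.306% ± 0.0495 in the WT penises. Secreted members together held 51.6% ± 4.41 by TPM in the tumors and 27.8% ± 0.478 in the WT penises. By CPM, which favors long transcripts, these shares were 28.4% and 22.5%. Pla2g2a does not lead by CPM. It then held 10.2% in the tumors, below Pla2g4e (20.2%), Pla2g4b (19.1%), Pla2g2f (15.5%), Pla2g4f (14.4%) and Pla2g4d (14.1%).

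**Figure D4:**
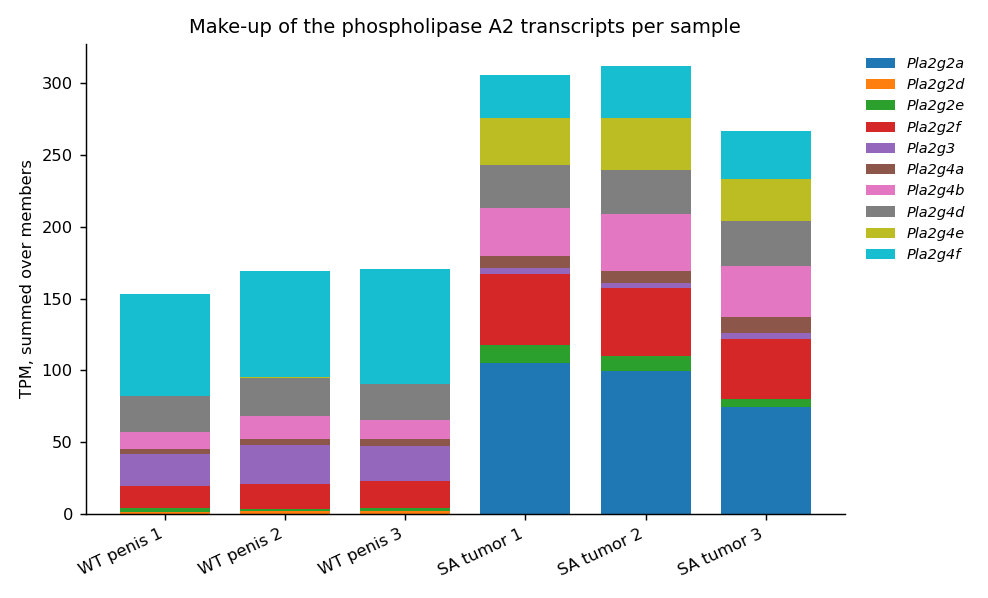
Deposited TPM of the 10 members stacked for each of the 3 WT penises and 3 SA tumors, on a linear axis from 0. Pla2g4f makes up most of the WT bars with Pla2g4d and Pla2g3, while Pla2g2a is the tallest segment of each tumor bar.

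Of 17 further phospholipase A2 genes, 15 were tested, and their median log2 fold change was 0.00. At both thresholds 3 were higher (background 9.41%) and 1 lower (background 3.59%). Of the 3 higher, Pla2g2c and Pla2g10 passed the filter on low counts only through the SA tumors. Pla2g10, a potent secreted enzyme, was at 7.99, 8.97 and 2.92 CPM in the SA tumors and 0.0452, 0.0334 and 0 CPM in the WT penises (log2 fold change 7.78 ± 0.76, adjusted p = 7.16e-05, edgeR). Pla2g7, the plasma enzyme that inactivates platelet-activating factor, was at 64.2 to 96.4 CPM against 10.8 ± 1.33 (log2 fold change 2.90 ± 0.17). Plb1, a phospholipase with both A2 and lysophospholipase activity, was at 3.57, 4.01 and 4.37 CPM against 29.1, 21.1 and 18.1 (log2 fold change -2.51 ± 0.20). None of the 3 overlapped between the groups (background 63.4%), but all 3 were named because they passed both thresholds. Among 15 patatin-like phospholipases and other lipases tested, 0 passed both thresholds, 3 rose (background 20.1%) and 3 fell (background 17.5%).

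The products of the family feed lysophospholipid, N-acylethanolamine and prostanoid pathways. The background for counts at both thresholds was 9.41% of all genes tested higher and 3.59% lower, and at the adjusted p-value alone 20.1% and 17.5%. Of 20 prostanoid and leukotriene enzymes, 4 were higher and 3 lower at both thresholds, with a median log2 fold change of 0.02. Ptgs2, the inducible cyclooxygenase that uses released arachidonate, was at 30.0, 19.3 and 45.7 CPM in the SA tumors and 0.769, 4.01 and 4.01 CPM in the WT penises (log2 fold change 3.42 ± 0.59). Hpgd, which inactivates prostaglandins, was at 16.8, 20.3 and 27.5 CPM against 283, 296 and 275 (log2 fold change -3.72 ± 0.18). The lipoxygenases Alox8 (log2 fold change 4.55 ± 0.56) and Alox15 (4.07 ± 0.66) also passed both thresholds upward. Alox15 was at 0.113 ± 0.0998 CPM in the WT penises and passed the filter on low counts only through the SA tumors.

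Of 9 genes tested in the N-acylethanolamine and endocannabinoid list, 1 was higher and 1 lower at both thresholds, with a median log2 fold change of -0.33. The lower one, Rarres1, is not an established gene of this pathway. Faah, which breaks down the lipids whose precursors Pla2g4e makes, was at 6.73, 11.6 and 6.45 CPM in the SA tumors and 1.90, 0.968 and 1.14 CPM in the WT penises (log2 fold change 2.63 ± 0.35). Napepld, which acts directly on those precursors, was at 10.7 ± 1.92 CPM against 3.61 ± 0.279 (log2 fold change 1.56 ± 0.19) and rose by less than 4-fold. Rarres1, a retinoic acid-responsive gene, was at 9.53 ± 2.78 CPM against 47.6 ± 4.94 (log2 fold change -2.32 ± 0.21).

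Of 17 genes of lysophospholipid and platelet-activating factor signalling, 1 was higher and 1 lower at both thresholds, with a median of -0.37. Gpr55, a lysophosphatidylinositol receptor, was at 7.5 ± 0.807 CPM in the SA tumors and 0.0151 in the WT penises. It passed the filter on low counts only through the SA tumors. Enpp2, which turns lysophosphatidylcholine into lysophosphatidic acid, was at 7.88, 26.0 and 38.3 CPM against 141, 116 and 151 (log2 fold change -2.48 ± 0.53, adjusted p = 0.00868, edgeR). The smooth muscle markers also fell, 6 of 6 (background 17.5%), with sums of 88.6 to 193 CPM in the tumors and 1580 to 2083 in the WT penises. Their part in the Enpp2 difference was not tested. Among 14 genes that return fatty acids to lysophospholipids, 5 rose and 5 fell, and 1 passed both thresholds upward. This was the acyl-CoA synthetase Acsl6 (3.02 ± 0.589 CPM against 0.168 ± 0.174), which also passed the filter on low counts only through the SA tumors. Of 10 genes for the receptor and regulators of phospholipases A2, 7 fell (background 17.5%) and 1 rose (background 20.1%), with 1 past both thresholds, downward, and a median of -0.70. Anxa2, a calcium-dependent phospholipid-binding protein, fell from 1790 ± 208 to 724 ± 77.5 CPM.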

How the data were processed

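RNA from 3 SA penile tumors and 3 WT penises was sequenced by the authors as stranded 76-base paired-end libraries, aligned to mm10 with TopHat and counted with HTSeq. The strand setting and tool versions are not given in the sources used here. The authors deposited raw counts per RefSeq transcript (33068 rows), with FPKM and TPM values. FPKM, as deposited, served only to recover transcript lengths, and the TPM values that the authors deposited were used for levels per length. Each of the 24063 symbols was represented by its row of highest mean count, of which 4914 had more than 1.

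Counts were tested in R 4.3.3 with edgeR 4.0.16 (filterByExpr, TMM, robust quasi-likelihood F-test, Benjamini-Hochberg). Genes were called at an adjusted p-value under 0.01 with at least a 4-fold difference (2 on the log2 scale), as in the study's methods. The smallest level, 3 counts, was 0.0244 to 0.137 CPM and covers counting error only. Within-group biological variation (BCV) was 0.222 for SA tumors and 0.129 for WT penises. On data simulated for this comparison over 16336 genes, with 200 shifted by 3 on the log2 scale, 189 of 195 tested (96.9%) were recovered and 0 others called.

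Alternatives were DESeq2 1.42.0, limma-voom (limma 3.58.1), other scalings and filters, glmTreat, other transcript rows, a replicate block and each sample left out. The authors' own tool was DESeq2. Named genes were the members, Smad4 and Apc, at most 4 genes past both thresholds per list by size of change (mean of at least 20 counts), strain-informative genes and neighbours within 200 kb. Napepld, Anxa2 and the readthrough row fall outside this rule and were chosen after their values were seen. Members and lists were chosen with earlier results of these data known. Coordinates and promoters are from RefSeq on GRCm38.p6, and shared 76-base windows were computed from GENCODE exons on GRCm38.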

Additional observations from a re-analysis of the deposited data

How the results depend on the processing

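Over 18 alternatives, 175 of 179 recomputed member values kept their direction and their side of the thresholds. Members higher in SA tumors numbered 2 to 3 with each sample left out, and members lower 2 in each such fit. At an adjusted p-value under 0.05 and any fold change 6 members were higher. Members lower fell to 1 where a mean of at least 50 counts was required, since Pla2g2d was then not tested, and to 1 with glmTreat. Pla2g2e passed both thresholds upward with library totals alone (2.03) and without the deepest SA library (2.04). Pla2g4d reversed to 0.19 with library totals, a scaling that moved the median of all genes to 0.31. Pla2g2a held 10.2% of the family by CPM. Genes past both thresholds numbered 2124, 1920 to 2220 with each sample left out, 929 with glmTreat, and 8723 at an adjusted p-value under 0.05 and any fold change.

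Samples with the same replicate number had correlations of deviations of -0.13, -0.10 and 0.02, against -0.15 to 0.21 for different numbers. No pairing by number was seen, but with so few samples these values cannot exclude it. With a replicate block 2066 genes passed, and the members called were 2 higher and 2 lower, as without it. Depth limits Pla2g2a in the WT penises, with 4 counts in all.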
